A study of Mus musculus with 6 samples.

Results

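Immunoglobulin heavy-chain variable (Ighv) segments were followed in RNA of whole mouse lungs. The members were all rows of the gene table with the biotype IG_V_gene and a symbol starting with Ighv whose read counts summed to at least 10 over the 6 libraries. This rule kept 79 of the 113 annotated Ighv segments (69.9%) among 54532 genes, and the kept segments held 98.3% of all counts on annotated Ighv segments. Of the 34 segments left out, 12 had no count in any library. Members were thus chosen by the summed count, so their presence is not a finding. Just inside the threshold, with a sum of 10, were Ighv9-2, Ighv3-4 and Ighv1-67, and just outside it, with a sum of 9, were Ighv15-2, Ighv8-5 and Ighv5-15.

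The libraries came from perfused lungs of untreated mice at 2 months old on the C57BL/6J background, with 3 WT mice and 3 ISM1-/- mice, which carry a knockout of Ism1, the gene of the secreted protein isthmin-1. The WT animals were bought from a supplier and the knockout line was bred by the laboratory, so an effect of genotype and one of animal source cannot be told apart. Each mouse gave 1 poly-A enriched library of read pairs, and total counts ranged from 37606133 to 42345042. The p-values below measure the spread between these samples only.

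Each B cell builds its heavy-chain gene by joining a V segment to a D and a J segment, a step called V(D)J recombination that takes place in the bone marrow. Every clone keeps the V segment it joined, so the mixture of V segments in a tissue reflects the mixture of B-cell clones in it, weighted by how much antibody mRNA each clone makes. Plasma cells carry far more of this mRNA than resting B cells. In bulk RNA, more cells of a type and more RNA per cell cannot be told apart.

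The 79 segments lie on the minus strand of chromosome 12 (GRCm38) between positions 113588267 and 116000461, a stretch of 2.41 Mb upstream of 17 annotated D segments. Names give the family first, so Ighv1-26 belongs to family 1, the largest one, with 41 members here. The following sequences are the last 300 bases of the V exons of 8 segments on which the results turn, printed 5′ to 3′ on the gene strand from the GENCODE release M21 transcripts of GRCm38. Capitals mark the bases that differ from the most similar other annotated Ighv segment, which is named with each one, and so show how much sequence was available to tell the segments apart.

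Ighv1-26, the most used segment over all libraries, chr12:114788372-114788671, minus strand, nearest to Ighv1-18:
Ighv1-26: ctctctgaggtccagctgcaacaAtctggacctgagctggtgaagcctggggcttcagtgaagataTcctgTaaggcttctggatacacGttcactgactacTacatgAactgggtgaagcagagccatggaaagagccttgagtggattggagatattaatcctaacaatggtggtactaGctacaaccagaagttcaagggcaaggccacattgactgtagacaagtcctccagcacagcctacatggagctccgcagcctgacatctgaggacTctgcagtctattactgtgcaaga
Ighv1-15, with the largest rise among the called segments, chr12:114657353-114657652, minus strand, nearest to Ighv1-23:
Ighv1-15: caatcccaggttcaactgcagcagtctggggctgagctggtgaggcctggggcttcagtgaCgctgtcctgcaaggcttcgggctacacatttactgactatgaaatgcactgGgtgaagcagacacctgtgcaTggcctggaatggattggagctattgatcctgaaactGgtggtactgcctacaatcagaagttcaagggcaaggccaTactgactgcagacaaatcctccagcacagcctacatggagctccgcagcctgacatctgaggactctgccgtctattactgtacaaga
Ighv3-6, called higher in every fit that left out a library, chr12:114288152-114288451, minus strand, nearest to Ighv3-1:
Ighv3-6: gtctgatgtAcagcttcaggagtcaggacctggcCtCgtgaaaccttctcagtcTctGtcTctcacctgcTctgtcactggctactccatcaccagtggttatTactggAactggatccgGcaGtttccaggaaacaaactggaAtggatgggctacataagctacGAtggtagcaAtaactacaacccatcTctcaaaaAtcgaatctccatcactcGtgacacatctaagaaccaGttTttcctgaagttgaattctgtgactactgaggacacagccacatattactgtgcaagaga
Ighv5-16, the top segment of the third ISM1-/- library, chr12:113838526-113838825, minus strand, nearest to Ighv5-12:
Ighv5-16: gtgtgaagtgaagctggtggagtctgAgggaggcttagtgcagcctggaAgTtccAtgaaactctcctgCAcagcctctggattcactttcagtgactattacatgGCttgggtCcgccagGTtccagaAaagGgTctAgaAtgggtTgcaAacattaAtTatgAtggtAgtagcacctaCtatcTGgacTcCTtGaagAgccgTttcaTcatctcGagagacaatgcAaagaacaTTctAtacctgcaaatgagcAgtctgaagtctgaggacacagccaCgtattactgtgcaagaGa
Ighv1-85, high in a single library, chr12:116000028-116000327, minus strand, nearest to Ighv1-84:
Ighv1-85: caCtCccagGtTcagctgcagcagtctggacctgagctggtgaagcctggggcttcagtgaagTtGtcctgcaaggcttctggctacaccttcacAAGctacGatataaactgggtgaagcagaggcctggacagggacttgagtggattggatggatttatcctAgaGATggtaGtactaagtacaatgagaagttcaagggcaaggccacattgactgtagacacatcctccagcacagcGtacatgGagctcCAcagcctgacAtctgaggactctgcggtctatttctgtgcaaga
Ighv1-64, with a lower share in every ISM1-/- library, chr12:115507545-115507844, minus strand, nearest to Ighv1-72:
Ighv1-64: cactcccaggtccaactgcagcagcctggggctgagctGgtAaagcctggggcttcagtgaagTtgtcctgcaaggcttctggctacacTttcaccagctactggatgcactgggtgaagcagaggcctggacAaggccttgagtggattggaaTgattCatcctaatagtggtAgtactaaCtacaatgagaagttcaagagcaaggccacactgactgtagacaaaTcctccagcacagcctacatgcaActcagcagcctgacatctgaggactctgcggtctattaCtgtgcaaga
Ighv11-2, a segment known from B-1a cells, chr12:114048241-114048540, minus strand, nearest to Ighv11-1:
Ighv11-2: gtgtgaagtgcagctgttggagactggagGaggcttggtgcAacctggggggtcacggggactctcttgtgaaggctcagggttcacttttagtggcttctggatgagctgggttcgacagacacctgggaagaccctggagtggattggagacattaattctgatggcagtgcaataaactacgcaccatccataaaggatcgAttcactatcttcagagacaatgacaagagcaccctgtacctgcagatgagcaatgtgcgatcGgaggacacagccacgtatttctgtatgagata
Ighv12-3, another such segment and the only one of family 12, chr12:114366521-114366820, minus strand, nearest to Ighv3-1:
Ighv12-3: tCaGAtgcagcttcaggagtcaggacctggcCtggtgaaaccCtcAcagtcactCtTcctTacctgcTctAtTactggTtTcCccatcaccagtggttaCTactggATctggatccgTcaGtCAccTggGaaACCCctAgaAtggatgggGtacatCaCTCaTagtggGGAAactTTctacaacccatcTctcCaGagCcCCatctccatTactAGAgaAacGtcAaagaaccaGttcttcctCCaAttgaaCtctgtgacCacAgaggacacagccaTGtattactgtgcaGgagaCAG

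The V exons of the 79 members measured 301 to 351 bases, with a median of 305. The identity of a member to its nearest annotated segment had a median of 95.4%, and 45 members had a neighbour at 95% identity or more. Within family 1, pairs of members shared a median of 85.6% of aligned bases, against 58.4% for pairs from different families. In the printed bases, the differences range from 4 for Ighv11-2 against Ighv11-1 to 69 for Ighv12-3 against Ighv3-1. The letters TGTGCAAGA, in which TGT is the codon of the conserved cysteine at the edge of the third hypervariable loop, end the V exon of 37 of the 79 members and of 46 of all 113 annotated segments (40.7%), read on the gene strand.

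Every window of 150 bases, the read length, was unique among the coding sequences of annotated Ighv genes and pseudogenes in 75 of the 79 members. The exceptions were Ighv1-72, Ighv11-2, Ighv2-2 and Ighv1-62-2, of which Ighv1-62-2 had 3.81% unique windows because its V exon is identical to that of Ighv1-71. Counts of segments with such close copies are uncertain, since the way the counting treated reads that match several genes is not given in the sources used here. Somatic mutation and the joined D and J bases, which can also move a read to a neighbour, are not in these reference sequences.

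The Ighv segments together were more abundant in the ISM1-/- lungs. The WT libraries held 650, 700 and 695 counts on the 79 segments and the ISM1-/- libraries held 2041, 1301 and 1458. As TMM-scaled CPM (counts scaled to a common library size), WT mice had summed levels of 17.2, 16.9 and 18.0, and ISM1-/- mice reached 48.0, 34.3 and 37.4. The groups did not overlap, and the lowest ISM1-/- library stood well above the highest WT library. The means were 17.4 ± 0.562 CPM in WT and 39.9 ± 7.19 CPM in ISM1-/- (SD, n = 3 each), a 2.30-fold difference (1.20 on the log2 scale). The sum carries no p because its members were chosen with results of these data known.

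The same direction appeared in the light chains, which pair with the heavy chain in every antibody. The 81 kappa and lambda variable segments with a summed count of at least 10 went from 34.3 ± 2.97 to 73.3 ± 17.2 CPM (SD, n = 3 each), 2.14-fold, again with no overlap between genotypes. Of 57 tested, 10 were called higher and 1 lower (edgeR), where 0.284% of all genes tested were called higher and 0.284% lower. A segment was tested if it reached 0.5 CPM in at least 1 library, which the higher ISM1-/- totals made easier. The number of calls is thus no support for a direction. The 8 heavy-chain constant genes encode the part of the antibody that sets its class. They summed to 156 ± 8.83 CPM in WT and 277 ± 66.1 CPM in ISM1-/-, 1.78-fold, also without overlap. Of the 7 tested, 2 were called higher, beside the same 0.284% of all genes tested. Igha, the constant gene of the mucosal class IgA, rose by 2.19 ± 0.19 on the log2 scale (SE, edgeR adjusted p = 0.00193). Ighg1, of class IgG1, rose by 2.74 ± 0.69 (SE, edgeR adjusted p = 0.0766). This gene had few counts, 1, 1 and 9 in WT and 43, 15 and 20 in ISM1-/-. It reached 0.5 CPM only in ISM1-/- libraries, so its call is no support for a direction. Ighm, the constant gene of IgM carried by most resting B cells, had 0.57 ± 0.19 (SE, edgeR adjusted p = 0.166) and its level in the third ISM1-/- library lay within the WT range of 94.0 to 109 CPM.

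**Figure D1:**
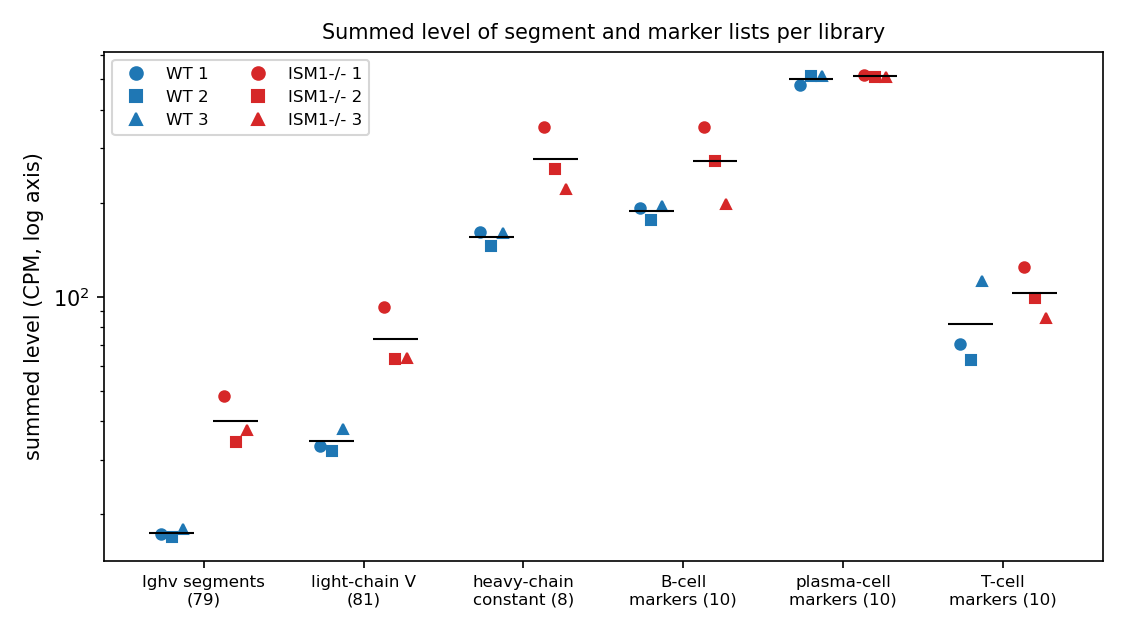
Summed level (CPM, log axis) of 6 gene lists, with 1 point per library, blue for WT and red for ISM1-/-, the marker shape giving the replicate number and black lines the means. The Ighv segments, light-chain segments, constant genes and B-cell markers had no overlap between genotypes. Plasma-cell and T-cell markers overlapped, the latter only through the third WT library.

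Markers of B cells were also higher, but by less. The 10 B-cell markers (among them Ms4a1 and Cd79a, parts of the B-cell surface) summed to 193, 176 and 196 CPM in WT and 351, 273 and 199 CPM in ISM1-/-. The third ISM1-/- library was thus close to the WT range for these markers, whereas its Ighv level was about as high as that of the second. Relative to the geometric mean of the 10 markers, the Ighv level was 1.03, 1.08 and 1.04 in WT and 1.51, 1.43 and 2.09 in ISM1-/-, 1.60-fold higher without overlap. Relative to the constant genes, on the length-scaled FPKM values, it was 0.453, 0.491 and 0.472 in WT and 0.594, 0.579 and 0.753 in ISM1-/-, 1.36-fold higher without overlap. The part of cell numbers in the Ighv difference was not tested.

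Of the 10 B-cell markers, 4 were higher at an edgeR adjusted p under 0.1, none of them with a 2-fold change. Without a fold minimum, 258 of all 18689 genes tested were higher and 624 lower at this adjusted p. The median log2 fold change of the list was 0.58 beside 0.0043 over all genes tested. Of the 10 plasma-cell markers, only Jchain, which joins IgA and IgM into polymers, was called higher, with 2.13 ± 0.16 on the log2 scale (SE, edgeR adjusted p = 0.00114). Its level was 4.18 ± 0.268 CPM in WT and 18.2 ± 3.94 CPM in ISM1-/- (SD, n = 3 each). The plasma-cell sum, 502 ± 18.0 against 513 ± 4.73 CPM, was made up mostly of Sdc1 and Xbp1, which lung epithelium also expresses, and overlapped between genotypes. T-cell markers overlapped as well, with 82.0 ± 26.8 CPM in WT and 103 ± 20.01 CPM in ISM1-/-. Single libraries had 70.8, 62.6 and 113 CPM in WT and 125, 99.1 and 85.3 CPM in ISM1-/-. Only the third WT library made the T-cell sums overlap.

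The genes that carry out V(D)J recombination showed that 1 library stood apart. Rag1, which forms the recombinase together with Rag2, had 1075 counts in the third WT library and 2 to 20 in the other 5, and Rag2 had 56 counts there and 0 elsewhere. Dntt, which adds bases at the joints, had 390 counts there against 2 to 13. A list of 10 thymocyte genes, drawn up after this was seen, summed to 171 CPM in that library against 78.1 to 114 CPM in the others. None of the 9 tested was called. The list includes Rag1, Rag2 and Dntt, so its sum is no separate support for the difference of that library. The Ighv level of the same library, 18.0 CPM, lay near those of the other WT mice, and without it the Ighv sum differed by 1.23 on the log2 scale. None of the 10 recombination genes was called in either direction (edgeR), and their median log2 fold change was −0.099.

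Of the remaining lists, none of the 7 genes of class switching and hypermutation was called (6 tested) and their median log2 fold change was −0.050. The octamer-binding list (Pou2f1, Pou2f2 and Pou2af1, which act at Ighv promoters) had no call in 3 genes and a median of 0.34, and the 6 germinal-centre genes (5 tested) had no call and a median of 0.11. Lung epithelium markers summed to between 34817 and 44400 CPM in all 6 libraries, so the labelled tissue expressed its defining genes throughout. Their sum was lower in every ISM1-/- library (42911 ± 1360 against 36117 ± 1327 CPM), and none of the 6 was called. Most of this difference was Scgb1a1, a club-cell gene, with 20919 ± 859 CPM in WT and 14669 ± 1851 CPM in ISM1-/-, an edgeR adjusted p of 0.0270 and a change under 2-fold. Haemoglobin and related red-cell genes, a sign of blood left after perfusion, overlapped widely (280 ± 156 against 311 ± 271 CPM), and cardiac muscle genes were 829 ± 556 CPM in WT and 368 ± 123 CPM in ISM1-/-, with 1 of 6 called lower. The first WT library stood apart in the cardiac genes (1468 CPM), and without it the WT mean was 509 CPM. The part of these lists in the Ighv difference was not tested.

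The targeted gene Ism1 had 3098, 3215 and 2975 counts in WT and 2784, 2508 and 2953 in ISM1-/-, a log2 fold change of −0.19 ± 0.071 (SE, edgeR adjusted p = 0.217). Its transcript was retained, so the counts do not check the genotype, which rests on the labels.

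Single segments had few counts, so the test across all genes reached only part of them. At least 0.5 CPM in at least 1 library was required, which 45 of the 79 members met, and 32 of these 45 met it only through ISM1-/- libraries and none only through WT libraries. Of the 45, 10 were called higher in ISM1-/- by edgeR (adjusted p under 0.1 over all genes and at least a 2-fold change), where 0.284% of all 18689 genes tested were called higher. Of these 10, 9 had passed the filter only through ISM1-/- libraries, so their number is no support for a direction. No member was called lower by edgeR or by DESeq2, none had a negative change at an unadjusted p under 0.05 by either tool, and 0.284% of all genes were called lower by edgeR. DESeq2 gave an adjusted p for 18 of the 45 members and called 9 of them higher, beside 0.279% of all genes with one, and at an adjusted p under 0.05 edgeR called 4, beside 0.134%. Without a filter on low counts, all 79 members were tested and 21 were called higher, beside 0.354% of all genes. Leaving out single libraries changed the number from 10 to 3 without the second or the third WT library, to 5 without the first WT, the first ISM1-/- or the second ISM1-/- library, and to 14 without the third ISM1-/- library. Over all genes, 53 were called higher with every library kept, and 53, 17 and 27 without WT replicates 1, 2 and 3. Without ISM1-/- replicates 1, 2 and 3, all genes called higher numbered 19, 25 and 86, so these changes were not particular to the Ighv segments.

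Counted without a test, 66 of the 79 members had a higher mean CPM in ISM1-/- and 13 a higher mean in WT. The ISM1-/- libraries gave more of the summed count by which members were kept, so this number is no support for a direction. Segments whose 3 ISM1-/- libraries all lay above the 3 WT libraries numbered 17 (21.5%), beside 8.37% of all genes with a summed count of at least 10. The reverse pattern was found in 1 member (1.27%), Ighv3-4, with 2, 1 and 6 counts in WT and 1, 0 and 0 in ISM1-/-, beside 11.0% of all genes. At this depth a member such as Ighv3-4 rests on a handful of reads.

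Ighv1-15 had the largest rise among the called members. The WT libraries had 11, 6 and 8 counts, the ISM1-/- libraries 137, 25 and 96, and all ISM1-/- libraries were higher, the second far less so than the others. The level went from 0.214 ± 0.0739 to 2.11 ± 1.32 CPM (SD, n = 3 each), a log2 fold change of 3.30 ± 0.58 (SE, edgeR adjusted p = 0.0243). The call was lost without the second WT library (edgeR adjusted p = 0.112).

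Ighv1-78 and Ighv3-6 were the only members called in all 6 fits that each left out 1 library. Ighv1-78, near the distal end of the locus, had 4, 5 and 4 counts in WT and 31, 26 and 45 in ISM1-/-, with a log2 fold change of 2.92 ± 0.40 (SE, edgeR adjusted p = 0.0116). Ighv3-6, of the small family 3, had 9, 10 and 5 counts in WT and 67, 44 and 31 in ISM1-/-, with a log2 fold change of 2.52 ± 0.39 (SE, edgeR adjusted p = 0.0163). DESeq2 called Ighv3-6 and gave no adjusted p for Ighv1-78, whose log2 fold change it put at 2.96. Both segments reached 0.5 CPM only in ISM1-/- libraries, so their calls are no support for a direction. Ighv1-78 had 0.103 to 0.120 CPM in WT and 0.685 to 1.15 CPM in ISM1-/-. Ighv3-6 had 0.129 to 0.241 CPM in WT and 0.795 to 1.58 CPM in ISM1-/-.

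Ighv5-16 had a different pattern of counts. The WT libraries had 5, 6 and 8 counts, the ISM1-/- libraries 14, 25 and 122, so the third ISM1-/- library held most of them. The log2 fold change of 3.06 ± 0.83 (SE, edgeR adjusted p = 0.0967) was 1.59 without that library and no longer called (edgeR adjusted p = 0.121). The call was also lost without any of the 3 WT libraries or the second ISM1-/- library (edgeR adjusted p between 0.133 and 0.266).

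Ighv1-26, the most abundant member, had 22, 61 and 32 counts in WT and 108, 83 and 88 in ISM1-/-. The ISM1-/- libraries were alike and the WT libraries spread, and the log2 fold change of 1.27 ± 0.30 (SE, edgeR adjusted p = 0.0597) was near that of the Ighv sum. Ighv1-53, also of family 1, had 13, 11 and 15 counts in WT and 56, 35 and 27 in ISM1-/-, with 1.56 ± 0.34 (SE, edgeR adjusted p = 0.0489). Ighv1-26 lost the call without the first or the third WT or the first or the second ISM1-/- library (edgeR adjusted p up to 0.186). Ighv1-53 kept it only without the third ISM1-/- library (edgeR adjusted p up to 0.180 in the other fits).

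The remaining called members were Ighv1-39 (log2 fold change 2.02), Ighv8-8 (1.80), Ighv1-19 (1.70) and Ighv14-2 (1.66), with edgeR adjusted p between 0.0579 and 0.0826. Ighv1-39 had 10, 8 and 9 counts in WT and 17, 46 and 48 in ISM1-/-. Ighv8-8 had 12, 4 and 8 counts in WT and 28, 36 and 22 in ISM1-/-. Each of these segments was above all WT libraries in every ISM1-/- library, and each was called in only 1 or 2 of the 6 fits that left out a library (edgeR adjusted p up to 0.249). DESeq2 gave no adjusted p for Ighv8-8 and Ighv14-2, and with 0.5 CPM required in at least 3 libraries Ighv1-39 and Ighv5-16 were not tested. The 10 called segments came from families 1, 3, 5, 8 and 14.

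**Figure D2:**
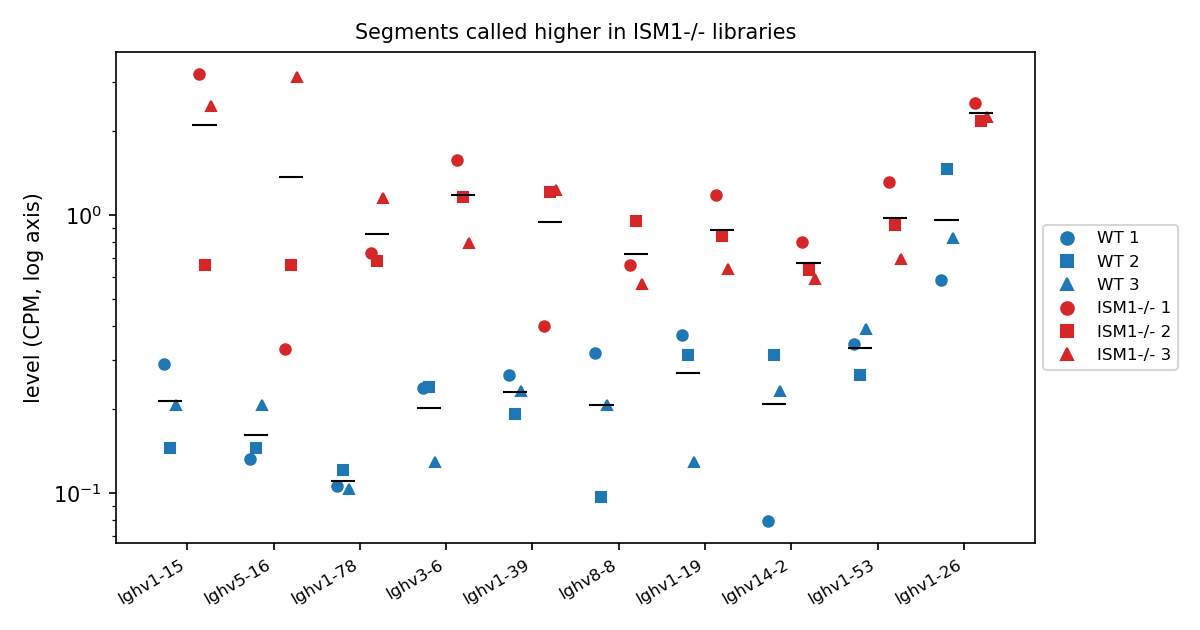
Level (CPM, log axis) of the 10 segments called higher in ISM1-/- lungs, in order of their log2 fold change from 3.30 on the left to 1.27 on the right, with 1 point per library (blue WT, red ISM1-/-, shape for the replicate) and black lines for the means. No segment had an ISM1-/- point below a WT point, and the red points of Ighv5-16 and Ighv1-15 spread most.

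Abundant segments were also found among those not called. Ighv6-3 had 24, 32 and 47 counts in WT and 35, 31 and 101 in ISM1-/-, which overlapped (log2 fold change 0.68 ± 0.47, SE, edgeR adjusted p = 0.536). Ighv9-3 had 21, 37 and 27 counts in WT and 64, 87 and 20 in ISM1-/-, with the third ISM1-/- library below the WT range (0.996 ± 0.459, SE, edgeR adjusted p = 0.331). Ighv1-55 had 29, 6 and 10 counts in WT and 147, 29 and 15 in ISM1-/- (2.00 ± 0.81, SE, edgeR adjusted p = 0.255), and its log2 fold change was 0.57 without the first ISM1-/- library and 2.94 without the first WT library. These 3 segments were high in different ISM1-/- libraries.

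Of the 45 tested members, 3 had a negative log2 fold change. As 32 of the 45 had passed the filter only through ISM1-/- libraries, this low number is no support for a direction. Without a filter on low counts, 13 of the 79 members had a negative change. Ighv1-64 had 18, 41 and 32 counts in WT and 36, 21 and 13 in ISM1-/- (−0.40 ± 0.40, SE, edgeR adjusted p = 0.696). Ighv7-3 had 10, 41 and 18 counts in WT and 23, 9 and 12 in ISM1-/- (−0.66 ± 0.51, SE, edgeR adjusted p = 0.596). Ighv5-17 had 11, 38 and 31 counts in WT and 28, 33 and 12 in ISM1-/- (−0.14 ± 0.47, SE, edgeR adjusted p = 0.930). All 3 overlapped between genotypes in CPM.

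Usage, the share of a segment in the summed FPKM of all members of a library, compares segments per length and sets aside the higher total of the ISM1-/- lungs. Averaged over the 6 libraries, the most used segments were Ighv1-26 with 5.88 ± 1.86%, Ighv6-3 with 4.39 ± 2.21%, Ighv9-3 with 4.04 ± 1.90%, Ighv1-18 with 3.43 ± 1.22% and Ighv1-15 with 3.22 ± 2.78% (SD, n = 6). They were followed by Ighv1-64, Ighv1-55, Ighv1-9, Ighv5-17 and Ighv1-82, between 2.60% and 2.31%. These 10 segments held 33.2% of usage. Every step in this order was smaller than the SD between libraries, so the order of neighbours is not resolved.

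Within the higher total, 4 of the 79 segments (5.06%) took a larger usage share in every ISM1-/- library than in any WT library, about the same part as among the 81 light-chain segments (4.94%), so their number is no result about the Ighv segments. They were Ighv1-15, Ighv3-6, Ighv1-78 and Ighv5-9-1. Ighv3-6 went from 1.23 ± 0.410% to 3.04 ± 0.738% and Ighv1-78 from 0.686 ± 0.0752% to 2.35 ± 0.841% (SD, n = 3 each). Ighv1-26, in contrast, had 5.74 ± 2.87% in WT and 6.02 ± 0.546% in ISM1-/-, so its share overlapped although its level was called higher.

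A lower share in every ISM1-/- library was found for 8 segments (10.1%), beside 6.17% of the light-chain segments, a difference that was not tested. They were Ighv1-64, Ighv1-74, Ighv1-80, Ighv3-4, Ighv4-1, Ighv5-4, Ighv7-3 and Ighv11-2. Ighv1-64 went from 3.95 ± 1.39% to 1.26 ± 0.420%, and Ighv11-2 from 1.59 ± 0.531% to 0.337 ± 0.143% (SD, n = 3 each). The total to which these shares refer itself differed 2.30-fold, and the segments with a lower share had level values that overlapped between genotypes, with the exception of Ighv3-4.

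Ighv11-2 and Ighv12-3 are known from antibodies of B-1a cells, a self-renewing B-cell type of the body cavities, many of which bind phosphatidylcholine. Ighv11-2 had 18, 10 and 13 counts in WT and 12, 3 and 7 in ISM1-/-, or 0.351 ± 0.119 against 0.180 ± 0.102 CPM (SD, n = 3 each). Ighv12-3 had 16, 3 and 5 counts in WT and 9, 3 and 3 in ISM1-/-, or 0.209 ± 0.189 against 0.123 ± 0.0772 CPM. Neither reached 0.5 CPM in any library, and both levels overlapped between genotypes. As shares of the Ighv counts, Ighv11-2 did not overlap (2.02 ± 0.683% against 0.433 ± 0.183%), and Ighv12-3 did (1.20 ± 1.10% against 0.292 ± 0.129%).

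**Figure D3:**
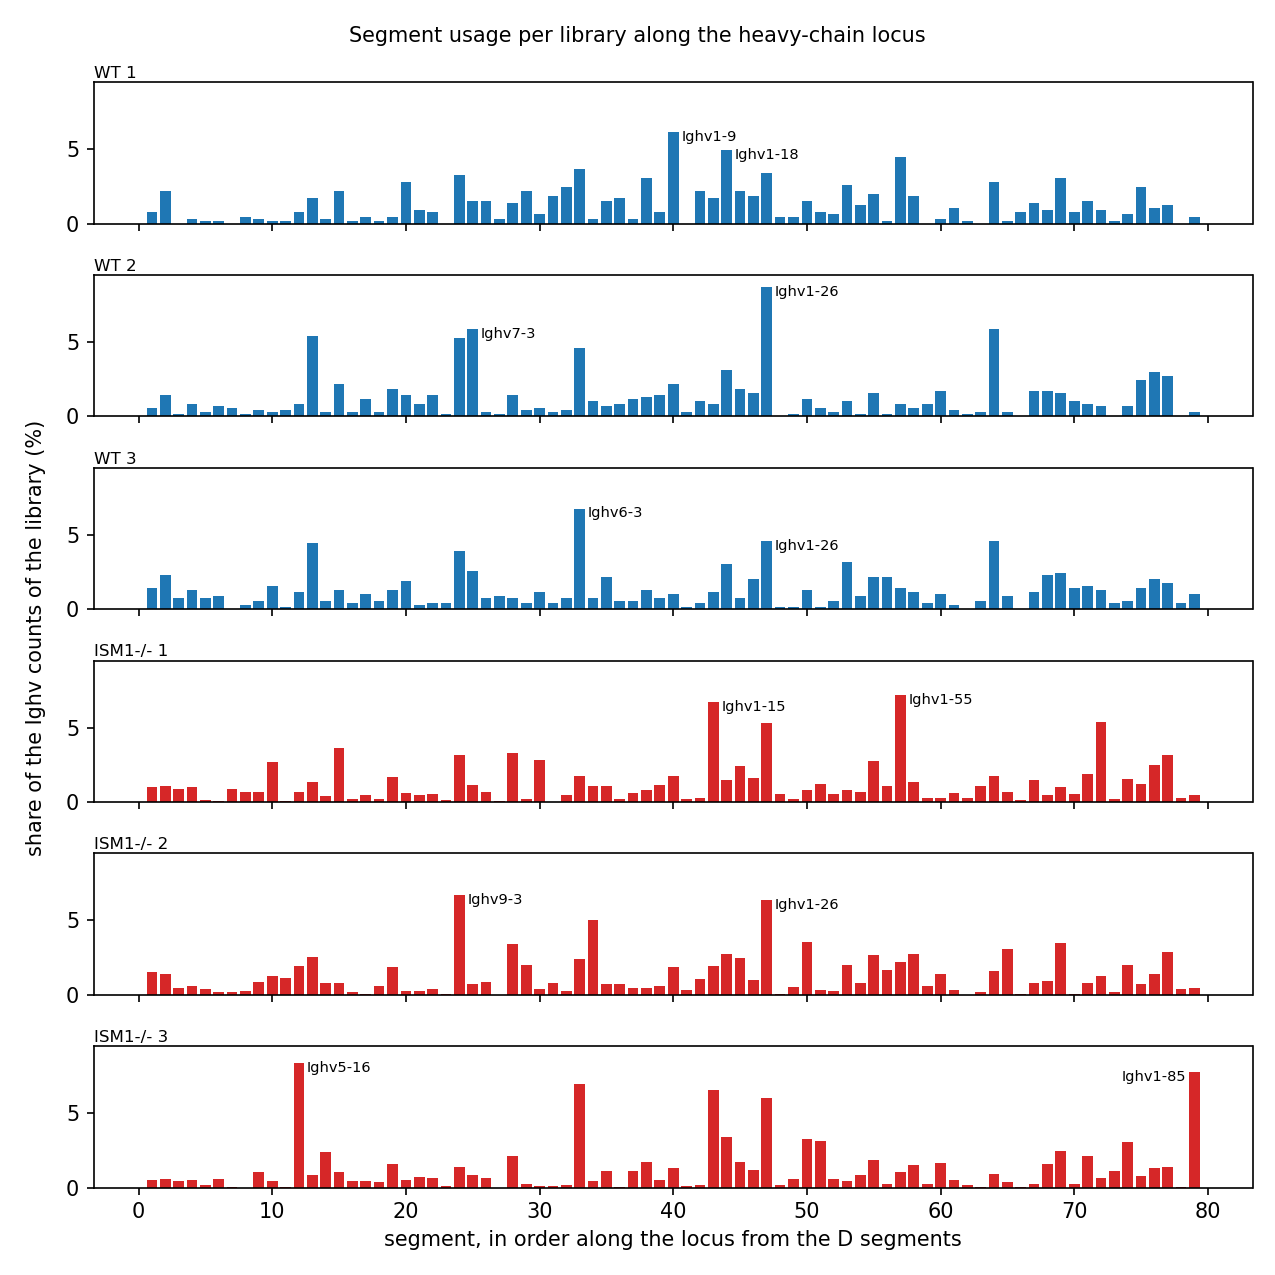
Share of each of the 79 segments in the Ighv counts of a library (%, bars from 0), in order along the locus from the D segments on the left, with 1 panel per library (blue WT, red ISM1-/-). The names mark a pair of top segments per library, of which Ighv7-3 in the second WT library is level with Ighv1-64. The top segment differed between all 6 libraries, and the bars of Ighv5-16 and Ighv1-85 in the third ISM1-/- library had no counterpart elsewhere.

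Each library had its own top segment. As shares of the Ighv counts with 95% Wilson intervals, which cover counting error only, Ighv1-9 led the first WT library with 6.15% (4.55 to 8.27%), Ighv1-26 the second with 8.71% (6.84 to 11.04%) and Ighv6-3 the third with 6.76% (5.12 to 8.88%). In the ISM1-/- libraries, Ighv1-55 led the first with 7.20% (6.16 to 8.41%), Ighv9-3 the second with 6.69% (5.45 to 8.18%) and Ighv5-16 the third with 8.37% (7.05 to 9.90%). The height of the top share did not separate the genotypes (7.21 ± 1.34% against 7.42 ± 0.861%, SD, n = 3 each).

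A group of 6 segments stood out in a single library, with a share at least 3 times the next highest and at least 20 counts there, and all were in ISM1-/- libraries. These segments were chosen after their values were seen. In the third ISM1-/- library they were Ighv1-85, with 113 counts against at most 9 elsewhere, Ighv5-16, with 122 against at most 25, and Ighv2-9, with 35 against at most 10. The second ISM1-/- library had Ighv6-6, with 65 counts against at most 22, and Ighv1-66, with 40 against at most 14. The first had Ighv1-76, with 110 counts against at most 16. The WT libraries had fewer Ighv counts in all, so the minimum of 20 counts asked for a larger share there. Ighv12-3 and Ighv1-67 in the first WT library missed only this minimum, with 16 and 5 counts. Their shares were 3.42 and 5.23 times the next highest, against 3.12 times for Ighv2-9. That all 6 were in ISM1-/- libraries is thus no result about the genotypes. Of the 6, only Ighv5-16 was called (edgeR), and the adjusted p of the others lay between 0.108 and 0.180. Without these 6 segments, an alternative added after seeing the data, the Ighv sum differed by 1.05 on the log2 scale.

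Members were summed by family, of which 14 of 16 annotated ones had members. In 10 families the mean level was higher in ISM1-/-, and in 6 of these, families 1, 2, 3, 5, 8 and 14, no ISM1-/- library overlapped a WT library. Family 1, with 41 of 53 annotated segments, held 379, 374 and 350 counts in WT and 1270, 716 and 868 in ISM1-/-, 2.53-fold in CPM (9.37 ± 0.590 against 23.7 ± 5.63 CPM, SD, n = 3 each). Its share of the Ighv counts was 54.0 ± 4.01% in WT and 58.9 ± 3.63% in ISM1-/-, which overlapped.

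The fold varied between the smaller families. Family 3, led by Ighv3-6, held 16, 17 and 23 counts in WT and 129, 57 and 38 in ISM1-/-, 3.86-fold, and family 2 held 13, 18 and 39 in WT and 119, 72 and 63 in ISM1-/-, 3.53-fold. The log2 ratio of the mean CPM of family 2, ISM1-/- over WT, was 2.43 without the third WT library. Families 14, 8 and 5 differed 2.36-fold, 2.23-fold and 2.19-fold, near the Ighv sum. Family 14 varied least within a genotype, with 20, 23 and 19 counts in WT and 61, 40 and 48 in ISM1-/-.

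Families 6, 7, 9 and 10 had higher means in ISM1-/- but overlapped, with folds of 2.22, 1.29, 1.85 and 1.35. Family 9, led by Ighv9-3, held 40, 51 and 36 counts in WT and 82, 119 and 35 in ISM1-/-, so that the third ISM1-/- library had a level (0.897 CPM) below the WT range (0.931 to 1.23 CPM). Family 7 had 24, 56 and 27 counts in WT and 97, 19 and 27 in ISM1-/-. It was highest in the first ISM1-/- library (2.28 CPM), followed by the second WT library (1.35 CPM). Its log2 ratio was -0.59 without the first ISM1-/- library.

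The families with a lower mean in ISM1-/- were 4, 11, 12 and 13, each with 1 member, and all overlapped in level. The direction turned without single libraries in 3 of them. The log2 ratio was 0.27 for family 4 without the second ISM1-/- library and 0.0035 without the second WT library, 0.28 for family 12 without the first WT library, and 0.74 for family 13 without the first WT library and 0.089 without the first ISM1-/- library. Ighv13-2, of family 13, had 12, 2 and 3 counts in WT and 0, 10 and 2 in ISM1-/-, too few to show a difference. As shares of the Ighv counts, families 4 (Ighv4-1) and 11 (Ighv11-2) were lower in every ISM1-/- library, and no family had a higher share in every ISM1-/- library.

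**Figure D4:**
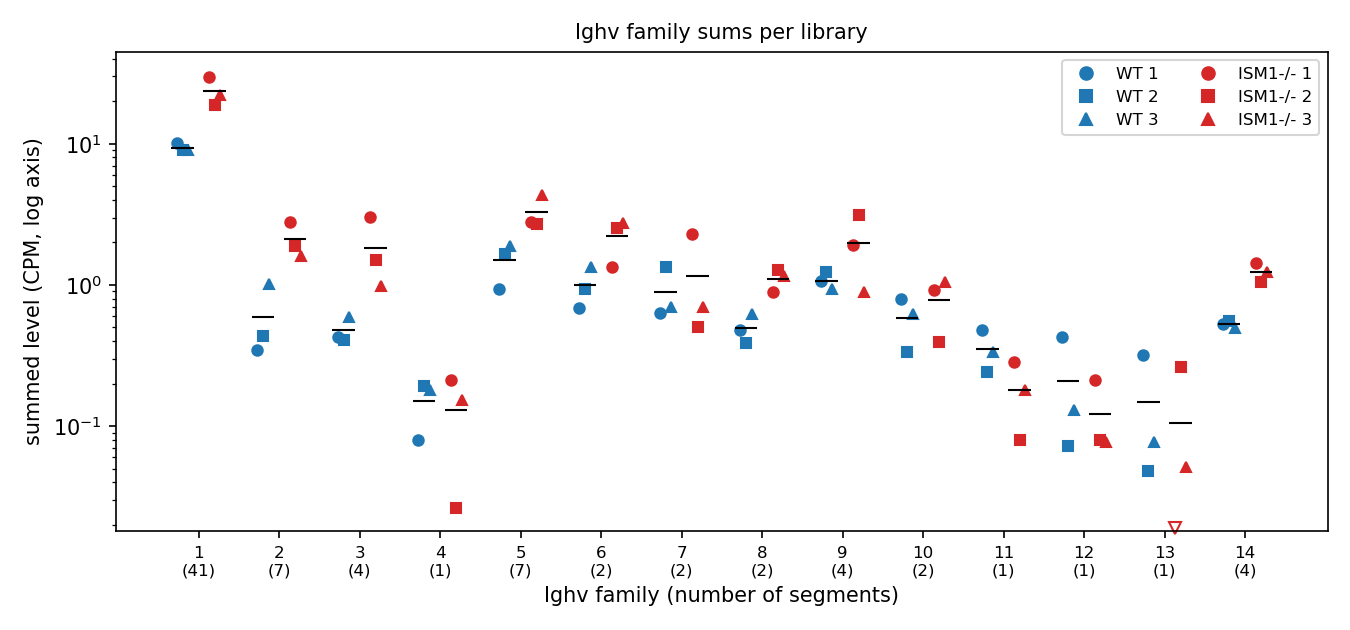
Summed level (CPM, log axis) of the 14 Ighv families, with the number of segments of each in parentheses, 1 point per library (blue WT, red ISM1-/-, shape for the replicate) and black lines for the means. An open triangle on the lower edge marks a library with no count (family 13, ISM1-/- replicate 1). Families 1, 2, 3, 5, 8 and 14 had no overlap, and families 4, 11, 12 and 13 had lower means in ISM1-/-, a direction that turned without single libraries in families 4, 12 and 13.

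By position, the difference was present along the whole locus. The 27 segments nearest the D segments differed 1.97-fold (5.05 ± 1.11 against 9.92 ± 1.59 CPM), the 26 in the middle 2.32-fold (6.95 ± 1.24 against 16.1 ± 1.81 CPM) and the 26 distal ones 2.59-fold (5.36 ± 0.556 against 13.9 ± 3.95 CPM, SD, n = 3 each). None of these sums overlapped between genotypes. The share of the distal segments in the Ighv counts, 30.8 ± 2.21% in WT and 34.4 ± 3.43% in ISM1-/-, did overlap. Of the distal segments 24 of 26 belong to family 1, so position and family cannot be told apart there.

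Evenness describes how equally the counts are spread over the segments. The effective number of segments, the exponential of the Shannon entropy, is the number of equally used segments that would be as diverse. It was 50.4, 45.8 and 54.9 in WT and 49.1, 49.8 and 41.7 in ISM1-/-, which overlapped (50.4 ± 4.53 against 46.9 ± 4.52, SD, n = 3 each). The third ISM1-/- library was the least even and the other ISM1-/- libraries lay within the WT range. Thinned to 650 counts each, so that depth did not differ, WT libraries had 50.4, 45.6 and 54.6 and ISM1-/- libraries had 47.0, 48.2 and 40.2.

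Other measures of evenness gave the same order of the lowest library. The inverse Simpson number, which weighs the leading segments more, was 40.4, 31.4 and 41.7 in WT and 35.0, 37.4 and 27.4 in ISM1-/-. The 10 leading segments of a library held 37.5, 47.0 and 37.8% of its Ighv counts in WT and 43.4, 39.9 and 51.1% in ISM1-/-, and 50% of the counts was reached with 16, 12 and 16 segments in WT and 13, 15 and 10 in ISM1-/-. All of these overlapped between genotypes.

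The third ISM1-/- library was also the least even in the light chains. Its 81 light-chain segments had an effective number of 38.0, led by Igkv5-43 with 9.76% (95% Wilson interval 8.66 to 10.99%), against 47.2 to 53.1 in the other 5 libraries. This library had B-cell markers near the WT level and the highest Ighv level per B-cell marker, as given above.

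**Figure D5:**
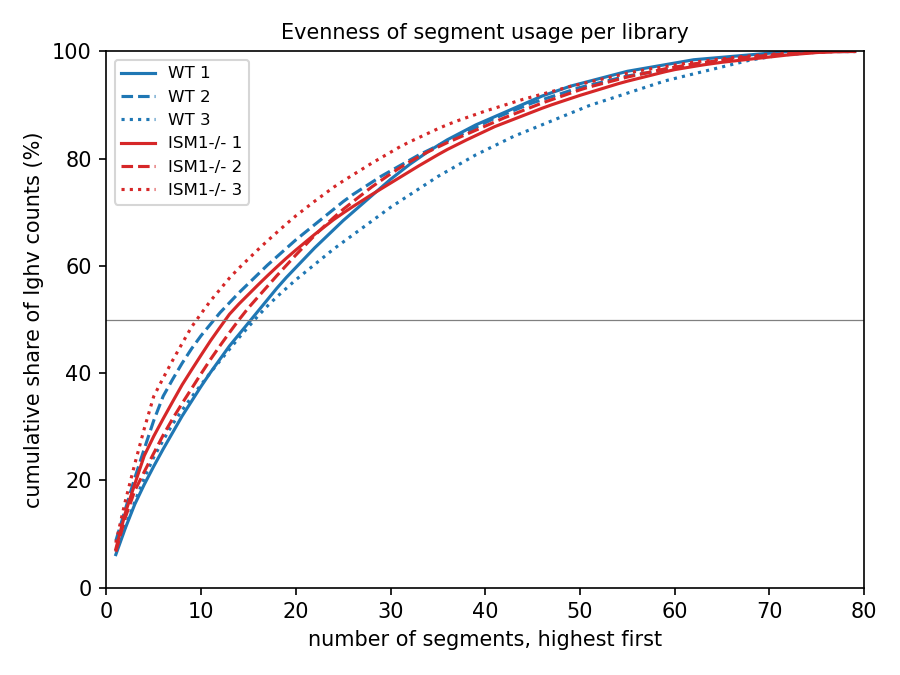
Cumulative share of the Ighv counts (%) against the number of segments, highest first, with 1 line per library (blue WT, red ISM1-/-, line style for the replicate) and a grey line at 50%. The line of the third ISM1-/- library rises first, reaching 50% with 10 segments, and the other lines lie together between 12 and 16.

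The mixture of segments varied between mice of a genotype and between genotypes by overlapping amounts. The Bray-Curtis dissimilarity of usage, which is 0 for identical shares and 1 for no shared segment, was 0.261 to 0.352 between WT mice, 0.343 to 0.399 between ISM1-/- mice and 0.331 to 0.447 between mice of different genotype. WT mice shared 5 to 7 of their 10 most used segments with each other, ISM1-/- mice 2 to 4, and mice of different genotype 2 to 4. The light-chain segments gave lower values, 0.204 to 0.248 between WT mice, 0.237 to 0.331 between ISM1-/- mice and 0.227 to 0.342 across genotypes. In both kinds of segment the ranges overlapped, and the WT libraries held fewer Ighv counts each.

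Of the 79 members, 65 were detected in all 6 libraries. The WT libraries had counts on 72, 75 and 76 members and the ISM1-/- libraries on 78, 77 and 77, a difference that reversed when every library was thinned to 650 counts (74.0 ± 1.86 against 71.9 ± 1.08, SD, n = 3 each, with overlap). A total of 27 members had a summed count of at least 100 and 18 had fewer than 30, so for many segments a difference of the size of the Ighv sum was not detectable at this depth. The 70 annotated Ighv pseudogenes together held 4, 3 and 1 counts in WT and 12, 5 and 8 in ISM1-/-, so few reads were placed on them.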

How the data were processed

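Lung RNA of 3 WT and 3 ISM1-/- mice was analysed, with genotypes from the labels. The authors mapped read pairs to GRCm38 with STAR, and the deposited read counts per gene are whole numbers without normalization. The deposited FPKM values divide them by library total and gene length, and were used for usage, for the ratio to constant genes and as an alternative for sums and evenness. The counting program, annotation release and strand setting are not given in the sources used here. Every pair of libraries differed by more than sampling noise. Counts were scaled by TMM and tested across all genes by the quasi-likelihood test of edgeR 4.0.16 in R 4.3.3, for genes reaching 0.5 CPM in 1 library or more, with Benjamini-Hochberg adjustment. SEs are of log2 fold changes (ISM1-/- over WT), calculated from the quasi-likelihood F statistic. The test was checked on simulated data, in which the changed genes had means above 2 CPM and all genes the same dispersion. No Ighv member had such a mean, so the check does not cover their depth or spread. Alternatives were DESeq2 1.42.0, RLE scaling, other filters and thresholds, a replicate block and the omission of each library.

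The members, gene lists and tests were chosen with earlier results of these data known. Segments named in the text were the 10 most used, the top segment of each library and family, the called ones, those next to the threshold and list members. Others are identified where they appear, and segments listed by a lower or higher share or a negative change are complete sets of that kind. Sequences came from GENCODE release M21. Values of some single genes of these lists are not reported here.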

Additional observations from a re-analysis of the deposited data

How the results depend on the processing

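The number of Ighv segments called higher in ISM1-/- lungs, 10 by edgeR, was 10 with RLE size factors, 10 with TMM factors computed without immunoglobulin genes, 10 without a fold minimum, 9 with 0.5 CPM in at least 3 libraries and 9 with DESeq2, which shared 7 and gave no adjusted p for the other 3 (Ighv1-78, Ighv8-8 and Ighv14-2). It was 21 without a filter on low counts, 17 with the replicate block (0.364% of all genes) and 4 at an adjusted p under 0.05. Without single libraries it ranged from 3 to 14, with 5 without WT replicate 1, 3 without WT replicate 2 or 3, 5 without ISM1-/- replicate 1 or 2 and 14 without ISM1-/- replicate 3. Over all genes, the number called higher in the fits without single libraries ranged from 17 to 86. The cause of these changes was not tested. No segment was called lower under any of these settings. As 0.284% of all genes were called lower in the main fit and 180 of 31946 without a filter, this is no support for a direction. With a mean above 2 CPM no member was left, so no value could be had. The replicate numbers mark different animals, and the deviations of same-numbered libraries from their group means correlated at −0.0405, 0.0310 and 0.00101, so the block shares only a number, and no WT library correlated best with the ISM1-/- library of its own number. The log2 ratio of the Ighv sum stayed between 1.05 and 1.38 under all alternatives, and it was 1.05 without the 6 segments led by a single library, an alternative chosen after seeing the data. The difference in the effective number (−3.49) ranged from −5.78 to −0.889 without single libraries and was 0.194 for segments with a summed count of at least 100, and moved by less than the SD between WT libraries (4.53) under each alternative. Among single segments that were not called, the sign turned without single libraries for Ighv1-9 (−0.0985 to 1.26), Ighv5-17 (−0.487 to 0.178, with 0.158 without WT replicate 2 and 0.00343 without WT replicate 3) and Ighv6-3 (−0.0900 to 0.993). With segments of a summed count of at least 100 the log2 ratios of families 8 and 14 were 1.80 and 1.69, since few of their segments were left. Depth limits most segments, with a median summed count of 67 over the 6 libraries.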
